A study of Homo sapiens with 4 samples.

Results

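The genes of cholesterol synthesis, sterol sensing by SREBP2, and sterol uptake and storage were followed in JJ012, an established human chondrosarcoma cell line. Members were the rows of the deposited gene table whose symbol was on a list of 30 genes, and all 30 were found among 61806 genes. The 4 libraries came from JJ012 cells of genotype WT, 2 untreated and 2 given Antcin K at 10 µM for 24 h, and no vehicle is named for the untreated cells. Antcin K is an ergostane-type triterpenoid of the medicinal fungus Antrodia cinnamomea. Both groups were the same line in medium with fetal bovine serum, which carries lipoproteins, so neither was grown under sterol depletion as far as the labels say. Whether replicates were grown as separate cultures is not stated, so p-values reflect the spread among these libraries alone, and that spread may be technical.

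Cells make cholesterol from acetyl-CoA through mevalonate, farnesyl diphosphate and squalene, or take it up with lipoproteins. SREBP2, the product of SREBF2, is a transcription factor held in the endoplasmic reticulum membrane with its escort SCAP, and the INSIG proteins keep that complex there while sterols are plentiful. When sterols run low, SCAP carries SREBP2 to the Golgi, where the proteases encoded by MBTPS1 and MBTPS2 release its active part, which switches on most enzymes of the pathway and INSIG1 itself.

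The members were placed in 4 roles, namely 7 enzymes of the early mevalonate steps, 12 enzymes of sterol-committed synthesis, 6 genes of SREBP2 sensing and processing, and 5 genes of uptake, transport and storage. The promoters below show what the upstream DNA of the members has in common and where members differ. They belong to SREBF2, the regulator, INSIG1, its feedback target, and HMGCS1 and LBR, the members with the lowest p-values. Each line holds the 250 bases before a RefSeq start (GRCh38.p14), 5′ to 3′ on the gene's strand. Capitals mark CCAAT on either strand, the box bound by NF-Y, which works beside SREBP at many sterol genes, and TCACNCCAC, the core of a sterol regulatory element.
SREBF2 (chr22:41832855-41833104, plus strand): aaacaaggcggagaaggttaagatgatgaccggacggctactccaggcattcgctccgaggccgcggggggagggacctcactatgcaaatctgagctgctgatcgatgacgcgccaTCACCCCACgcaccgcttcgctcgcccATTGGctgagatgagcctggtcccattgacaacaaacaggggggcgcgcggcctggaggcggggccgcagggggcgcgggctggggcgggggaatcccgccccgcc
INSIG1 (chr7:155297628-155297877, plus strand): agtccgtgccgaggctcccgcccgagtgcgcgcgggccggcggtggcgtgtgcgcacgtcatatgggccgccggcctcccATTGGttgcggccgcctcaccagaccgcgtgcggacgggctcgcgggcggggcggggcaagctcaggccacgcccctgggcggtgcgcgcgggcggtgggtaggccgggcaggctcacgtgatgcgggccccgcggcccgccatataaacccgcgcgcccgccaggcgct
HMGCS1 (chr5:43313413-43313662, minus strand): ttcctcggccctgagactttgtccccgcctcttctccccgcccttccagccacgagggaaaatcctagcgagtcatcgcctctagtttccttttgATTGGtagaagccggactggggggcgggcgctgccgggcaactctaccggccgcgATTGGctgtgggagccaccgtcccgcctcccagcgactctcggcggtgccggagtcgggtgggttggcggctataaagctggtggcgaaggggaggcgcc
LBR (chr1:225428822-225429071, minus strand): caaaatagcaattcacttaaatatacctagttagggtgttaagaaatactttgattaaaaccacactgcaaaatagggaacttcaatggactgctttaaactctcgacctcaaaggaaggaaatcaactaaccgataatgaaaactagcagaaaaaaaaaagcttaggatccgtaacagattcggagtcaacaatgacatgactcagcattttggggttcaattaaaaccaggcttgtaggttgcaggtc

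RefSeq windows of 300 bases, from 250 before to 50 after a start, were held for 27 of the 30 members, some with several starts. A CCAAT box on either strand lay in a window of 19 of these 27 genes (70.4%), beside 39.7% of the 27305 genes with a window. GGGCGG, the box of the Sp1 family, was in 23 of 27 (85.2%, against 48.3%), and CACGTG, the E-box, in 4 (14.8%, against 8.77%). TCACNCCAC was found in the window of 1 member, SREBF2 itself (3.7%, against 1.39% of all genes). The SREBF2 stretch shows the element TCACCCCAC followed by a CCAAT box on the opposite strand, and the HMGCS1 stretch shows 2 such boxes. The 250 bases before another HMGCS1 start (chr5:43313182-43313431), not shown, hold 0 CCAAT boxes. The LBR stretch holds none of these motifs and has a GC content of 36.8%, against 78.4% for INSIG1. The capitals mark separate matches, and a match describes letters, not binding.

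The deposited counts added up to between 16911257 and 26270686 per library, and the members took 0.207% (replicate 1) and 0.251% (replicate 2) of them without Antcin K, and 0.259% and 0.238% with it. Transcripts of mitochondrial DNA took from 12.9% to 26.0% of a library, the most in untreated replicate 1. As a check of the labelled cell type, the cartilage transcription factor gene SOX9 stood between 1.38 and 5.45 FPKM, and VIM, the vimentin gene of mesenchymal cells, between 468 and 1050.6 FPKM. Of the 10 markers in the cartilage list, 1 reached 1 FPKM in every library, namely SOX9. Of the 5 markers in the mesenchymal list, 3 reached 1 FPKM in every library. The others besides VIM were far lower. COL1A1 lay between 0.80 and 5.05 FPKM, COL1A2 between 0.33 and 1.52, COL5A1 between 2.16 and 6.64 and PDGFRB between 1.66 and 2.14. COL2A1, the cartilage collagen, had 0 counts in all libraries and ACAN, the aggrecan gene, stood at 0.02 FPKM or less, so these defining markers of cartilage were absent or nearly so. In the epithelial, leukocyte and endothelial lists 0 of 4 markers each reached 1 FPKM in every library, with summed levels of 0.95 to 2.74 FPKM. Among them CD3E, a T cell gene, lay between 0.67 and 2.00 FPKM, and PTPRC, the general leukocyte marker, was at 0 in all libraries. Of 4 fat cell markers, 2 had 0 counts in every library, and their summed level stayed between 0.01 and 0.1 FPKM. The summed level of the cartilage list was 6.56 and 2.67 FPKM untreated and 1.95 and 3.31 FPKM after Antcin K, and its part in the results below was not tested.

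Levels between genes were compared as FPKM, which divides counts by exon length and library total, as deposited. The highest member was FDFT1, squalene synthase, which commits farnesyl diphosphate to sterols, at 81.8 and 139 FPKM in replicates 1 and 2 of the untreated cells and 158 and 134 FPKM in those with Antcin K. NSDHL, a sterol dehydrogenase, PMVK, phosphomevalonate kinase, and FDPS, farnesyl diphosphate synthase, came next with means over the 4 libraries of 68.8, 63.0 and 56.1 FPKM. Their ranges over libraries overlapped, from 40.1 to 82.5 for NSDHL, from 54.5 to 75.7 for PMVK and from 38.8 to 68.4 for FDPS, so these 3 were not separated beyond the spread. DHCR7, the reductase that makes cholesterol from its direct precursor, lay between 36.7 and 43.0 FPKM.

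At the low end stood 4 members below 1 FPKM in every library. These were CYP51A1, lanosterol demethylase, between 0.31 and 0.48 FPKM, LRP1, an endocytic receptor, between 0.19 and 0.39, EBP, a sterol isomerase, between 0.05 and 0.19, and TM7SF2, a sterol reductase, between 0.03 and 0.10. In the deposited values, enzymes of nearby steps differed widely, such as NSDHL at 68.8 FPKM and EBP at 0.10 FPKM. Where the files list overlapping genes, the low values are less certain. An unnamed gene on the same strand, with 2 counts, covers 6911 of the 6918 bases of EBP. CYP51A1 shares 22645 and 22628 bases with unnamed genes on its strand, each with 0 counts. It also shares 25687 bases with AKAP9 on the opposite strand. How shared reads were counted is not stated, so the values of EBP and CYP51A1 may not measure their transcripts. MVK shares 326 bases with MMAB and DHCR7 3596 bases with an unnamed gene, both on the opposite strand, and MBTPS2 overlaps YY2 on the same strand. TM7SF2 shares 18 bases with VPS51, which had 6721 counts over the 4 libraries against 18 for TM7SF2. LBR, whose product has the same sterol reductase activity as TM7SF2 beside its role at the nuclear envelope, lay between 1.85 and 5.48 FPKM.

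**Figure D1:**
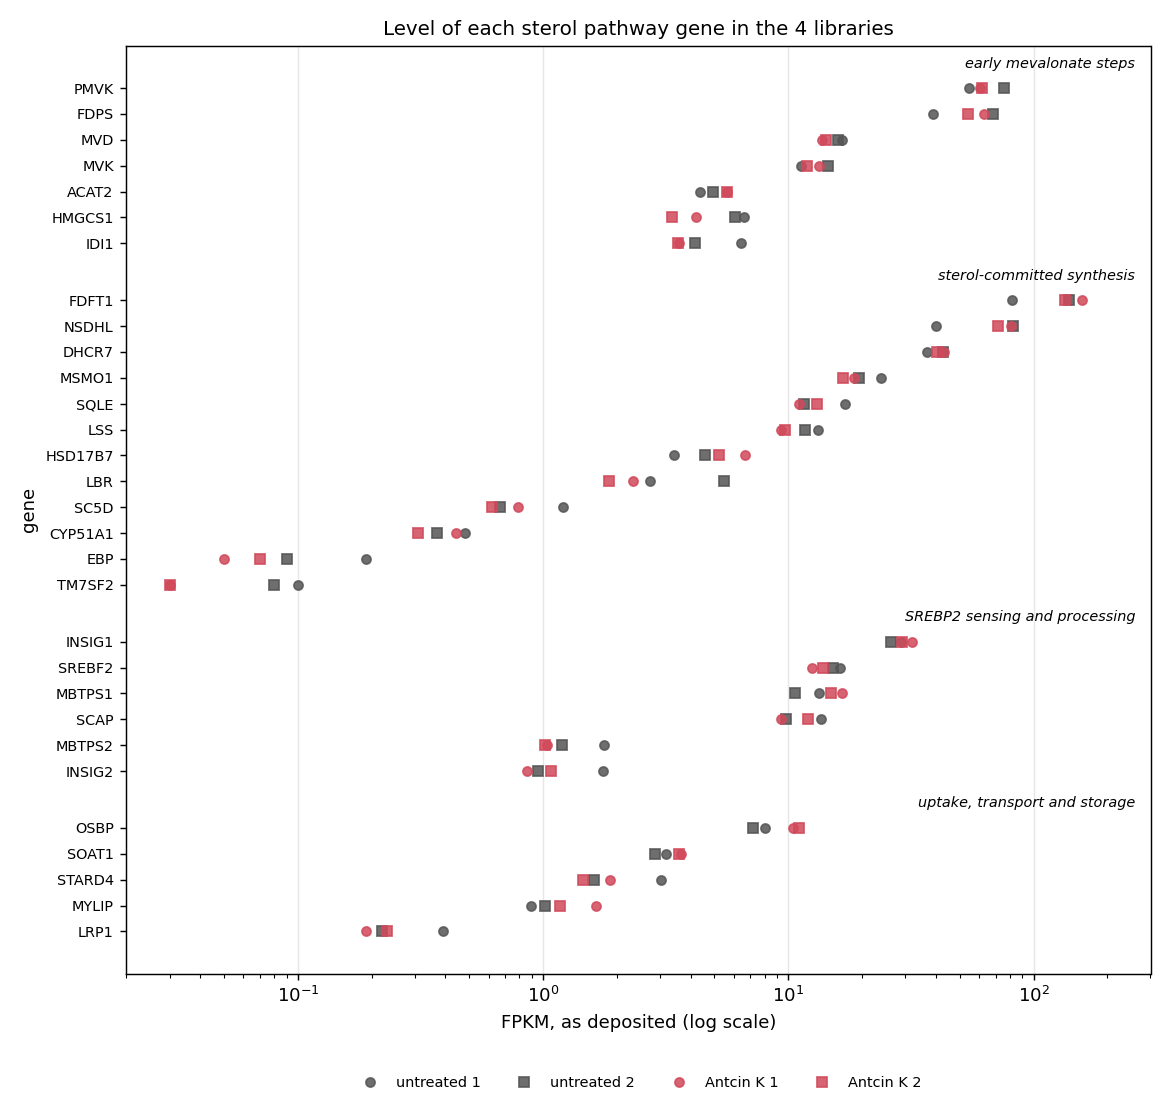
Deposited FPKM (log axis) of the 30 genes by role, with grey for untreated and red for Antcin K, circles for replicate 1 and squares for replicate 2. Levels run from 0.03 FPKM for TM7SF2 to 158 FPKM for FDFT1, and in the untreated pair the circle and the square lie far apart for NSDHL (40.1 and 82.5 FPKM) and close together for HMGCS1 (6.58 and 6.07 FPKM).

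For these genes, the contrast of the groups asks whether a triterpenoid given for 24 h goes with a different level of the sterol programme. None of the 28 members that passed the count filter reached an adjusted p under 0.05 (edgeR quasi-likelihood test, Benjamini-Hochberg over 14717 genes), and neither did any other gene, a background of 0%. At an unadjusted p under 0.05 there were 2 members, HMGCS1 and LBR, both lower with Antcin K by their means (7.14%), against 12.4% of all tested genes. DESeq2 called 0 members and 58 genes (0.514%), and edgeR called 0 members and 208 genes (0.723%) without the count filter and 0 members and 26 genes (0.177%) with a replicate block. The other 2 members, EBP with 9 and 3 counts in untreated cells against 2 and 2 with Antcin K, and TM7SF2 with 9 and 5 against 2 and 2, did not pass the count filter. In bulk RNA of this kind, fewer cells and less RNA per cell cannot be told apart.

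Of the 28 tested members, 17 had a lower and 11 a higher mean with Antcin K (60.7% lower, beside 53.8% of all tested genes, and 39.3% higher, beside 46.2%). Their median log2 fold change was -0.20, that of all tested genes -0.05. Both Antcin K libraries lay below both untreated libraries for 9 members (32.1%, against 23.3% of all tested genes) and above them for 7 (25.0%, against 22.6%). These shares are given as a description, with no test of the list. The 95% interval of the fold change excluded a doubling and a halving for 15 of the 28, beside 5320 of the 14717 tested genes. The median standard error was 0.27 for the members and 0.33 for all tested genes. For the other members the libraries leave larger changes possible.

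Of the 7 early mevalonate enzymes, 5 had a lower and 2 a higher mean, with a median log2 fold change of -0.15. Both Antcin K libraries lay below both untreated ones for HMGCS1, IDI1 and MVD and above them for ACAT2, and the groups overlapped for MVK, PMVK and FDPS. HMGCS1 (chr5:43287470-43313512, minus strand, hg38) encodes the cytosolic synthase that joins acetyl-CoA to acetoacetyl-CoA. It had 43.1 and 42.2 CPM without Antcin K and 26.7 and 22.3 CPM with it, where CPM are counts scaled to the TMM-adjusted depth of each library. The groups did not overlap, and the untreated pair was nearly level. The log2 fold change of -0.80 (standard error 0.23, 95% interval -1.33 to -0.26) corresponds to a level 1.74-fold lower (edgeR, adjusted p = 0.366). It had rank 332 by p among the 14717 genes. Without untreated replicate 1 it was called (log2 fold change -0.78, adjusted p = 0.00694, edgeR, when 9.38% of all genes were called), and without untreated replicate 2 as well (-0.80, adjusted p = 0.00226, when 25.2% were called). In these fits the lone untreated library is assumed to vary like the Antcin K pair, whose libraries lay closer together in the median over all genes, though not for HMGCS1 itself. Without Antcin K replicate 1 or 2 it was not called (-0.90 and -0.63, when 0.0519% and 0.0190% of all genes were).

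IDI1, the isomerase that sets the balance of the isoprene units, had 27.4 and 18.8 CPM without Antcin K and 14.8 and 15.4 CPM with it. Both Antcin K values lay below both untreated values, but the untreated pair differed by more than the gap to the treated libraries. Its log2 fold change was -0.62 (95% interval -1.25 to 0.01, edgeR, adjusted p = 0.410), and -0.32 without untreated replicate 1, the library that held the highest value. Without untreated replicate 2 it was -0.85. MVD, the decarboxylase that makes the isoprene unit, had a narrower pair, at 77.3 and 79.1 CPM without Antcin K and 61.7 and 68.2 CPM with it (log2 fold change -0.27, interval -0.79 to 0.26). ACAT2, the thiolase of the first step, had the higher mean with Antcin K, at 11.4 and 13.7 CPM without Antcin K and 14.3 and 15.1 CPM with it (0.23). ACAT2 overlaps TCP1 and SOD2 on the opposite strand. The kinase genes MVK and PMVK and the synthase gene FDPS had overlapping groups and log2 fold changes of -0.09, -0.15 and 0.06. MVK reached 0.17 and PMVK 0.17 without untreated replicate 2, and FDPS was at -0.31 without untreated replicate 1.

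In sterol-committed synthesis, 6 of 10 tested enzymes had a lower and 4 a higher mean with Antcin K, with a median log2 fold change of -0.26. LSS, which folds squalene epoxide into lanosterol, the first sterol, stood at 94.6 and 88.8 CPM without Antcin K and 64.9 and 70.9 CPM with it. The replicates of each group were close and the groups apart, with a log2 fold change of -0.43 (standard error 0.23, interval -0.96 to 0.09, edgeR, adjusted p = 0.464). The log2 fold change was -0.47 without untreated replicate 2. MSMO1, the methylsterol oxidase, had 67.5 and 58.2 CPM without Antcin K and 50.8 and 48.1 CPM with it (log2 fold change -0.35, interval -0.87 to 0.18). SQLE, squalene epoxidase, had overlapping groups, at 72.7 and 52.5 CPM without Antcin K and 45.8 and 56.8 CPM with it. Its fitted log2 value of -0.29 was -0.03 without untreated replicate 1 and -0.50 without untreated replicate 2.

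LBR (chr1:225401502-225428925, minus strand, hg38), the lamin B receptor that doubles as a sterol reductase, had the lowest log2 fold change of the members, -1.04 (standard error 0.37, interval -1.89 to -0.19, edgeR, adjusted p = 0.374). Its values were 15.4 and 32.9 CPM without Antcin K and 12.7 and 10.7 CPM with it. Untreated replicate 1 lay nearer to the treated libraries than to its own replicate. Without untreated replicate 2 the log2 fold change was -0.38, and without untreated replicate 1 it was -1.48. HSD17B7, the ketoreductase that works beside NSDHL, had the highest log2 fold change of the members, at 16.1 and 23.0 CPM without Antcin K and 30.5 and 25.2 CPM with it (0.51, interval -0.11 to 1.13, adjusted p = 0.464). The groups were apart by less than either pair's own gap. The value was 0.28 without untreated replicate 1 and 0.80 without untreated replicate 2. Its pseudogenes held 3 counts in all. SC5D, the desaturase, and CYP51A1 had overlapping groups and log2 fold changes of -0.46 and -0.23. SC5D was at -0.01 without untreated replicate 1 and at -0.77 without untreated replicate 2.

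FDFT1, NSDHL and FDPS form a set by their values, seen after the fact, in which untreated replicate 1 stood alone at the low end. For STARD4, SC5D and INSIG2 that library was instead the highest. FDFT1 had 420.2 and 761 CPM without Antcin K and 786 and 704 CPM with it. NSDHL had 79.2 and 173 CPM without Antcin K and 155 and 144 CPM with it, and FDPS 143 and 267 CPM against 225 and 204 CPM. The other 3 libraries were alike for FDFT1 and NSDHL and more spread for FDPS, and in each case untreated replicate 1 was low. The log2 fold changes of 0.34, 0.25 and 0.06 became -0.03, -0.20 and -0.31 without that library, and 0.84, 0.93 and 0.60 without untreated replicate 2. In the latter fit these 3 were called (edgeR, adjusted p = 7.58e-05, 8.09e-06 and 0.00440), along with 10 other members and 25.2% of all genes. NSDHL, FDPS, MVK and DHCR7 ordered the 4 libraries inversely to the mitochondrial share, 14.3% of the tested members against 8.47% of all tested genes, and the part of that share in these values was not tested. With mitochondrially encoded genes left out before scaling, FDFT1, NSDHL and FDPS were at 0.37, 0.29 and 0.10. DHCR7 stood at 249 and 307 CPM without Antcin K and 284 and 280 CPM with it, with overlapping groups and a log2 fold change of 0.02 (interval -0.58 to 0.61), which had the opposite sign, at -0.02, under upper-quartile scaling.

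**Figure D2:**
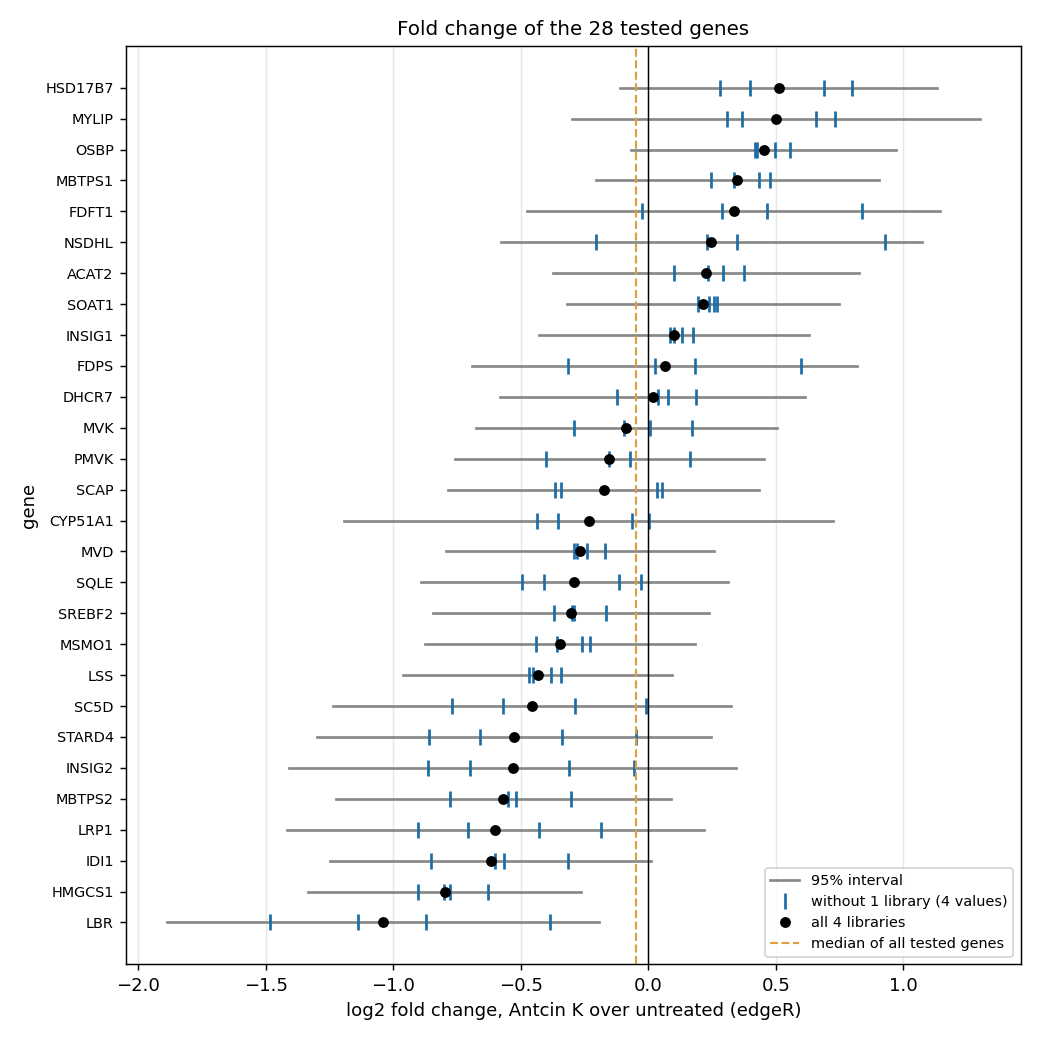
Log2 fold change of Antcin K over untreated (edgeR) for the 28 tested genes, with 95% intervals as grey lines, the 4 values without 1 library each as blue ticks, and the median of all 14717 tested genes as a dashed line at -0.05. The intervals of HMGCS1 (-1.33 to -0.26) and LBR (-1.89 to -0.19) lie below 0. The ticks of LSS, OSBP, SOAT1, INSIG1 and MVD stay close to their points. Those of HMGCS1 run from -0.90 to -0.63, and those of NSDHL spread from -0.20 to 0.93.

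Among the genes of SREBP2 sensing and processing, the regulator had a lower mean after Antcin K, within the error, and its feedback target INSIG1 was nearly level. SREBF2 (chr22:41833079-41907307, plus strand, hg38) had 121 and 120.2 CPM without Antcin K and 90.3 and 105 CPM with it. The groups were apart, with a log2 fold change of -0.30 (standard error 0.24, interval -0.85 to 0.24, edgeR, adjusted p = 0.612), and -0.17 without Antcin K replicate 1. INSIG1, a direct target of SREBP2, had 104 and 101 CPM without Antcin K and 112 and 108 CPM with it. Its log2 fold change of 0.10 had an interval of -0.43 to 0.63, so a doubling and a halving both lay outside it.

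INSIG2, the related retention protein, was far lower in FPKM, and had 6.89 and 3.92 CPM without Antcin K and 3.24 and 4.30 CPM with it. The groups of INSIG2 overlapped, and the fitted log2 value of -0.53 was -0.06 without untreated replicate 1 and -0.86 without untreated replicate 2. SCAP, the escort, had 84.4 and 64.8 CPM without Antcin K and 56.2 and 76.1 CPM with it, with overlapping groups and a log2 fold change of -0.17 that turned to 0.03 when untreated replicate 1 was left out and to 0.05 when Antcin K replicate 1 was. The 2 Golgi proteases had means on opposite sides. MBTPS1, which makes the first cut, stood at 135 and 115 CPM without Antcin K and 164 and 155 CPM with it (0.35, interval -0.21 to 0.90). MBTPS2, which makes the second, had 15.7 and 11.3 CPM without Antcin K and 8.94 and 9.26 CPM with it (-0.57, interval -1.23 to 0.09, edgeR, adjusted p = 0.446). Without untreated replicate 1 the value of MBTPS2 was -0.30, and without untreated replicate 2 it was -0.78.

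In uptake, transport and storage, 3 of 5 genes had a higher and 2 a lower mean with Antcin K, and the median log2 fold change was 0.22. OSBP (chr11:59574398-59615774, minus strand, hg38), which moves cholesterol from the endoplasmic reticulum to the Golgi in exchange for a phosphoinositide, stood at 40.6 and 38.5 CPM without Antcin K and 51.2 and 57.1 CPM with it. The groups were apart and each pair was close, with a log2 fold change of 0.45 (standard error 0.23, interval -0.07 to 0.97, edgeR, adjusted p = 0.446) and values of 0.42 to 0.56 without a library each. An unnamed gene on the opposite strand spans all of OSBP and had 5 counts. SOAT1, which esterifies cholesterol for storage, had 22.0 and 21.0 CPM without Antcin K and 24.5 and 25.5 CPM with it (0.22, interval -0.32 to 0.75).

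MYLIP, a ubiquitin ligase induced by sterols that sends lipoprotein receptors to degradation, had 2.71 and 3.30 CPM without Antcin K and 4.82 and 3.64 CPM with it, from 59 to 104 counts a library. Its log2 fold change was 0.50 (interval -0.30 to 1.30) and 0.31 without Antcin K replicate 1. LRP1 had 8.13 and 4.93 CPM without Antcin K and 3.89 and 4.78 CPM with it, so untreated replicate 2 lay beside the treated libraries. The fold change of LRP1, -0.60 on the log2 scale (interval -1.42 to 0.22), was -0.18 without untreated replicate 1 and -0.90 without untreated replicate 2. LRP1 overlaps STAT6 on the opposite strand, which had 11706 counts against 468. STARD4, a soluble carrier of sterols, had overlapping groups, at 17.0 and 9.63 CPM without Antcin K and 10.2 and 8.31 CPM with it. The fold change of STARD4, -0.53 on the log2 scale, was -0.05 without untreated replicate 1 and -0.86 without untreated replicate 2.

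In the median over the members the untreated pair differed more than the Antcin K pair, while for 9 of the 28 the Antcin K pair had the larger gap, HMGCS1, SREBF2, MVD, LSS and OSBP among them. The median absolute log2 ratio of replicate 1 to replicate 2 was 0.42 in the untreated pair and 0.15 in the Antcin K pair, beside 0.48 and 0.23 over the 14690 tested genes with counts in every library. For 16 of the 28 members the gap within the untreated pair exceeded the difference between the group means. Untreated replicate 1 was the higher of its pair for 17 members and the lower for 11, and the log2 ratio ran from -1.13 for NSDHL to 0.82 for STARD4. HMGCS1, SREBF2, MVD, INSIG1, SOAT1, OSBP and LSS differed least, at 0.09 or less in either direction. Among these 7, chosen after their values were seen, HMGCS1, SREBF2, MVD and LSS had the lower mean with Antcin K and INSIG1, SOAT1 and OSBP the higher.

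**Figure D3:**
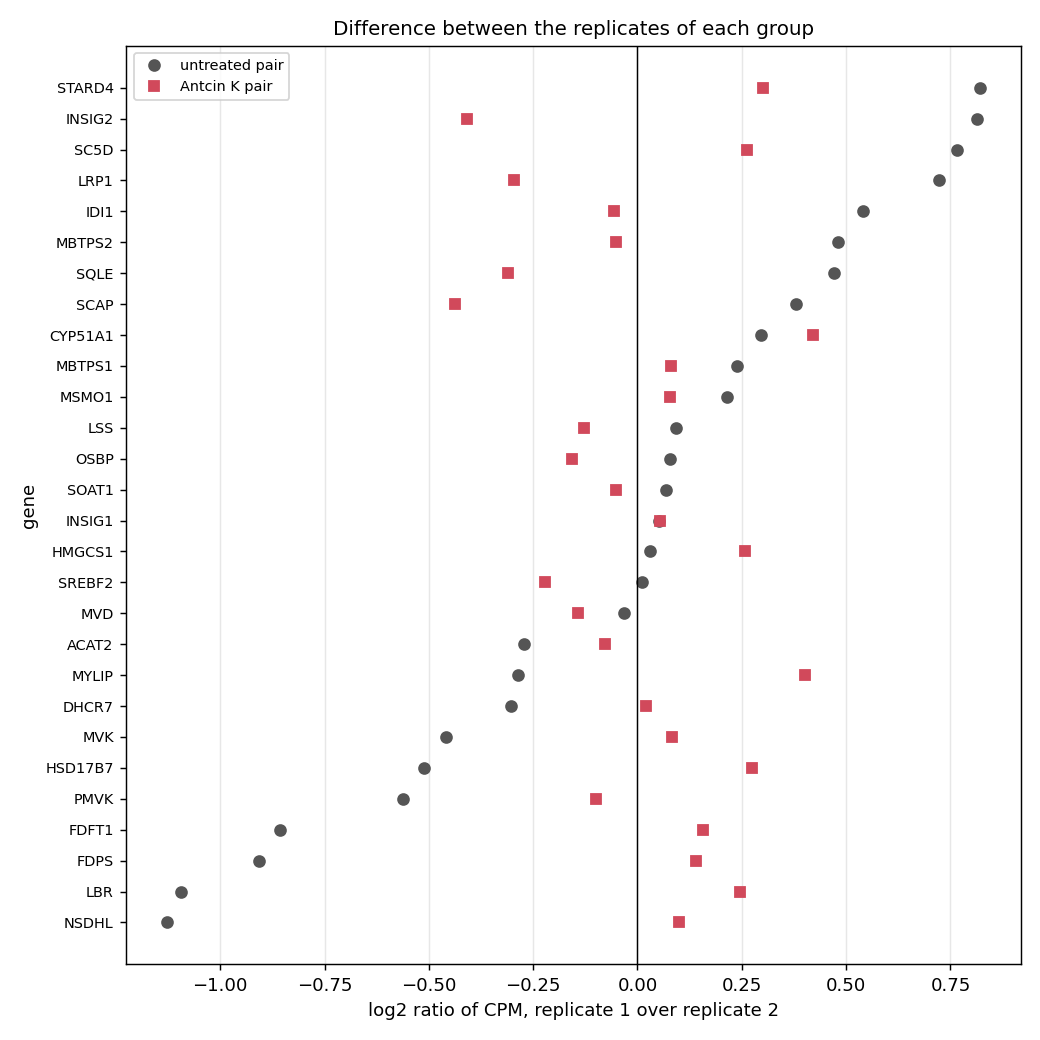
Log2 ratio of CPM in replicate 1 over replicate 2 for the 28 tested genes, with grey circles for the untreated pair and red squares for the Antcin K pair. The untreated pair runs from -1.13 (NSDHL) to 0.82 (STARD4), while no Antcin K ratio exceeds 0.44 in size.

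A further 67 genes of sterol and isoprenoid metabolism outside the members were read from the same fit. Of the 64 tested, 35 had a higher mean with Antcin K (54.7%, against 46.2% of all tested genes) and 29 a lower. Their median log2 fold change was 0.05, beside -0.05 over all tested genes, and 0 were called (0% of all genes). Both Antcin K libraries lay above both untreated ones for 24 (37.5%, against 22.6% of all tested genes). They lay below for 10 (15.6%, against 23.3%). Without untreated replicate 1, 6 were called (9.38% of all genes), and without untreated replicate 2, 23 (25.2%), LRPAP1 and NPC2 in both cases. The lowest p belonged to LRPAP1, a chaperone of lipoprotein receptors in the endoplasmic reticulum, at 44.9 and 46.8 CPM without Antcin K and 77.6 and 79.5 CPM with it. Both pairs were close and the groups well apart, with a log2 fold change of 0.78 (interval 0.26 to 1.29, edgeR, adjusted p = 0.366). NPC2, which hands lysosomal cholesterol on for export, had 53.0 and 51.5 CPM without Antcin K and 78.7 and 86.2 CPM with it (0.66, interval 0.14 to 1.18). In the sterol transfer list 11 of 16 genes had a lower mean (68.8%, against 53.8% of all tested genes), among them 4 of the 8 genes with the lowest p. OSBPL9 had 71.8 and 63.4 CPM without Antcin K and 50.4 and 39.1 CPM with it (-0.60), and OSBPL8 had 13.4 and 8.46 CPM against 7.23 and 5.44 CPM (-0.79). GRAMD1A had 52.0 and 36.3 CPM without Antcin K and 27.4 and 33.2 CPM with it (-0.55), and GRAMD1C had 1.62 and 1.34 CPM against 0.834 and 0.598 CPM (-1.04). In all 4, named here for their low p, both Antcin K values lay below both untreated values, as for 23.3% of all tested genes. SLC25A1, the mitochondrial citrate carrier that supplies acetyl-CoA, had 371 and 278 CPM without Antcin K and 190.0 and 234 CPM with it (-0.61). NR1H3, the sterol-sensing nuclear receptor LXRα, had 11.8 and 18.5 CPM without Antcin K and 10.6 and 8.66 CPM with it (-0.65). By edgeR these 8 genes had an adjusted p from 0.366 to 0.436. In the isoprenoid branch 7 of 10 genes had a higher mean (70.0%, against 46.2% of all tested genes). Among the genes of sterol-regulated degradation and SREBP trafficking it was 8 of 12 (66.7%).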

How the data were processed

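The deposited table gives raw counts per Ensembl gene in each of the 4 libraries, without pooling. It also gives FPKM, which the authors computed from those counts, the exon length of each gene and the library total. The authors used cutadapt 1.9.1, HISAT2 2.2.1 and HTSeq 0.6.1 on hg38, per the submitters' processing notes. Not given in the sources used here are the strand setting, the annotation release and the treatment of shared reads. Recomputed FPKM matched every deposited value within 0.005.

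Genes were filtered with filterByExpr (minimum count 10), scaled by TMM over the filtered genes, and tested with the robust quasi-likelihood fit of edgeR 4.0.16 (R 4.3.3), in which the group was the single term. Intervals are 95%. Calls needed an adjusted p under 0.05 over all 14717 tested genes. DESeq2 1.42.0, limma 3.58.1, other scalings and filters, a replicate block and leaving out each library were tried as alternatives. In simulated data for this comparison over 14717 genes, edgeR recovered 12.0% of 2-fold, 75.9% of 4-fold and 89.8% of 8-fold changes, with 8 false calls. The simulation gave both groups the same spread. In the data the untreated pair differed more than the Antcin K pair, so these rates may not hold for it. Between replicates the mean chi-square per gene was 191 (untreated) and 38.2 (Antcin K), above counting noise, so none were merged.

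All members are named. By rule, CPM in every library are given for the 12 members with the lowest p, for 10 chosen by role, some of them among those 12, and for the 8 other pathway genes with the lowest p. MVD, ACAT2, SQLE, FDFT1, NSDHL and FDPS were added after their values were seen. Members and lists were chosen with earlier results of these data known. Promoters are from RefSeq (GRCh38.p14).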

Additional observations from a re-analysis of the deposited data

How the results depend on the processing

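Of the members' fold changes, 418 values over the alternatives kept direction and side of the threshold, 15 passed it and 11 had the opposite sign. The median log2 fold change of the members was -0.16 with library totals only and without the count filter, -0.25 with upper-quartile scaling, -0.10 by limma on log2(FPKM + 1) and on log2(FPKM + 0.1), and -0.0908 on log2(FPKM + 1) with no minimum FPKM. That of all tested genes was -0.05 in the main fit. It was -0.00034 with library totals only, -0.0060 without the count filter and -0.09 with upper-quartile scaling. By limma it was 0.04 on log2(FPKM + 1), 0.06 on log2(FPKM + 0.1) and 0.0065 on log2(FPKM + 1) with no minimum FPKM. Uptake, transport and storage had 0.26 with library totals only and 0.38 on log2(FPKM + 0.1), where LRP1 fell under the minimum. Sterol-committed synthesis had -0.17 on log2(FPKM + 1) and -0.11 with no minimum FPKM. DHCR7 was at -0.0172 with upper-quartile scaling. Over all genes, 208 were called without the count filter, 58 by DESeq2, and 26 under the replicate block, with 0 members among them.

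Leaving out each library in turn gave 3 to 3971 genes called, 0 to 13 members and 0 to 23 of the other pathway genes. The medians ran from -0.27 to -0.0925 for the members, from -0.31 to 0.17 for the early mevalonate steps, from -0.37 to -0.0925 for sterol-committed synthesis, from -0.37 to -0.0124 for SREBP2 sensing and from 0.19 to 0.27 for uptake, transport and storage. The signs turned for FDFT1 (-0.0260 to 0.84), NSDHL (-0.20 to 0.93), FDPS (-0.31 to 0.60), MVK (-0.29 to 0.17), PMVK (-0.40 to 0.17), DHCR7 (-0.12 to 0.19), SCAP (-0.36 to 0.0546) and CYP51A1 (-0.44 to 0.0015). The cause of these shifts was not tested. Each of these fits set a lone library against a pair, so the spread came from that pair alone. The highest counts of calls all came without untreated replicate 2, when the share called over all genes was also highest. No conclusion on the members is drawn from the counts of calls in these fits.

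The labels do not say whether replicate numbers pair the libraries. Deviations of same-numbered libraries correlated at r = -0.32 across 14717 genes, which are not independent replicates. With the numbers crossed as a block, a choice made after seeing the data, 1430 of 14717 genes were called. Among them were 2 of the 28 tested members and 3 of the 64 other pathway genes. EBP and TM7SF2 had 2 counts in each Antcin K library, too few for a fold.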
